A study of Homo sapiens with 18 samples.

Results

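The 10 genes described here encode enzymes that make prostaglandins, an enzyme that breaks them down and receptors that read one of them, prostaglandin E2. They were taken by symbol through the Ensembl identifier of each row in the deposited count table, so they are 10 of 58735 genes. The members are PLA2G4A, PTGS1, PTGS2, PTGES, PTGES2, PTGES3, PTGIS, PTGER2, PTGER4 and HPGD. The counts come from RNA of PODO/TERT256, a line of human podocytes immortalised with telomerase, which was grown on 3D hemispheres with a smooth or a fractal surface. On each surface there were untreated cells (control), cells that received TNF-α with IL-6 (cytokines), and cells put together with macrophages made from the human monocytic leukaemia line THP-1. Each of the 6 groups has 3 libraries, 18 in all. No label names separate cultures, so the p-values measure only how libraries vary, possibly for technical reasons, and all groups share a single cell line.

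Prostaglandins are short-lived lipid signals. Cytosolic phospholipase A2 (PLA2G4A) frees arachidonic acid from membranes, and a cyclooxygenase, either the usually constitutive PTGS1 or the inducible PTGS2, turns it into prostaglandin H2. Prostaglandin E synthases (PTGES, PTGES2, PTGES3) then make prostaglandin E2, and prostacyclin synthase (PTGIS) makes prostacyclin. Prostaglandin E2 acts through the receptors EP2 (PTGER2) and EP4 (PTGER4), which raise cyclic AMP, and 15-hydroxyprostaglandin dehydrogenase (HPGD) inactivates it. In the glomerulus these lipids are known for their effects on filtration, and podocytes are known to express cyclooxygenase 2 in injury.

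Library totals ran from 11488204 to 21264180 counts. A pair of libraries stood apart by their share of mitochondrially encoded counts: smooth cytokines replicate 2 had 8.09% and fractal THP-1 replicate 3 had 0.847%, against 3.86% to 4.63% in the others. Among the podocyte markers NPHS1, WT1 and PTPRO were too low to test, while SYNPO stood at 66.6 CPM in the smooth controls. With cytokines SYNPO rose on both surfaces (0.66 ± 0.11 and 0.72 ± 0.11), while ACTN4, the most abundant podocyte marker, fell from 1230 to 799 CPM on smooth (-0.62 ± 0.09). ACTN4 carried most of the podocyte marker sum of 1490 CPM in both control groups, 1090 and 1240 CPM with cytokines, and 1360 and 975 CPM with THP-1 (smooth and fractal). The 4 endothelial markers did not move together: with THP-1 on fractal PECAM1 went from 0.317 to 10.5 CPM and KDR from 1.86 to 0.486 CPM, while CDH5 (-0.17 ± 0.25) and VWF (-1.17 ± 0.69) did not pass. The 4 mesangial and smooth muscle markers summed to 34.6 and 40.4 CPM in the controls, 40.1 and 55.3 CPM with cytokines and 24.5 and 29.1 CPM with THP-1. Among these PDGFRB was higher on fractal in the controls (0.60 ± 0.13, adjusted p = 0.0105). The other tested ones did not pass there: ACTA2 had 17.4 CPM on smooth and 15.3 CPM on fractal, and MYH11 had 1.52 and 1.24 CPM. The 4 tubule markers summed to between 1.02 and 4.15 CPM in the group means. The part of these marker changes in the results was not tested. Monocyte and macrophage markers (25 genes) summed to between 2.21 and 6.01 CPM in the 12 libraries without THP-1 cells. The sum was 63.5 to 68.5 CPM in the smooth THP-1 libraries and 28.7 to 33.8 CPM in the fractal ones, where 22 and 20 of the 25 had a count. Among these markers CD86 and C1QB had no count in any library and CD68 reached a mean of only 0.0401 CPM, whereas ITGB2 had 22.2 CPM on smooth and 8.61 CPM on fractal with THP-1. In bulk RNA, fewer cells of a type and less RNA per cell cannot be told apart.

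Levels below are counts per 1000000 counts (CPM) after TMM scaling, and differences are log2 fold changes with their SE. A gene passed the test when the Benjamini-Hochberg adjusted p of edgeR's quasi-likelihood test, over 16129 tested genes, was under 0.05. Of the 10 members 9 had enough counts to be tested. PTGS1 was kept only because of the THP-1 libraries, where it was high, so the number tested is not a neutral denominator. HPGD was not tested: it had no count in the smooth controls or in the fractal cytokine libraries, which allows up to 0.0623 and 0.0638 CPM (3 counts over the group, counting error only). The other groups held 7, 2, 3 and 6 HPGD counts in all, and the 6 of fractal THP-1 were all in replicate 3, the library with few mitochondrial counts.

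Per kilobase of exon, the members' levels in the smooth controls differed widely. PTGES3, which also serves as the p23 co-chaperone of HSP90, was highest at 67.0 ± 2.2 CPM per kilobase, followed by PTGIS at 33.3 ± 0.3 and PTGES2 at 12.5 ± 1.1. PTGS2 stood at 8.53 ± 0.32, PLA2G4A at 7.30 ± 0.59, PTGER2 at 4.98 ± 0.46 and PTGER4 at 2.78 ± 0.18. PTGES, the inducible microsomal synthase, had 0.266 ± 0.035 and PTGS1 only 0.0552 ± 0.018 CPM per kilobase. In untreated cells PTGS2 was thus the far more abundant cyclooxygenase transcript, and PTGES the least abundant of the prostaglandin E synthases. With cytokines on smooth topography PTGS2 reached 72.0 ± 15 CPM per kilobase and PTGES 15.5 ± 2.3, above PTGES2 at 12.6 ± 2. PTGES3 has 5 pseudogenes in the table, which hold 735 counts against its own 62763, so shared reads leave its level slightly uncertain. None of the members shares exon bases with another annotated gene (GENCODE 29), which matters because the libraries kept no strand.

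**Figure D1:**
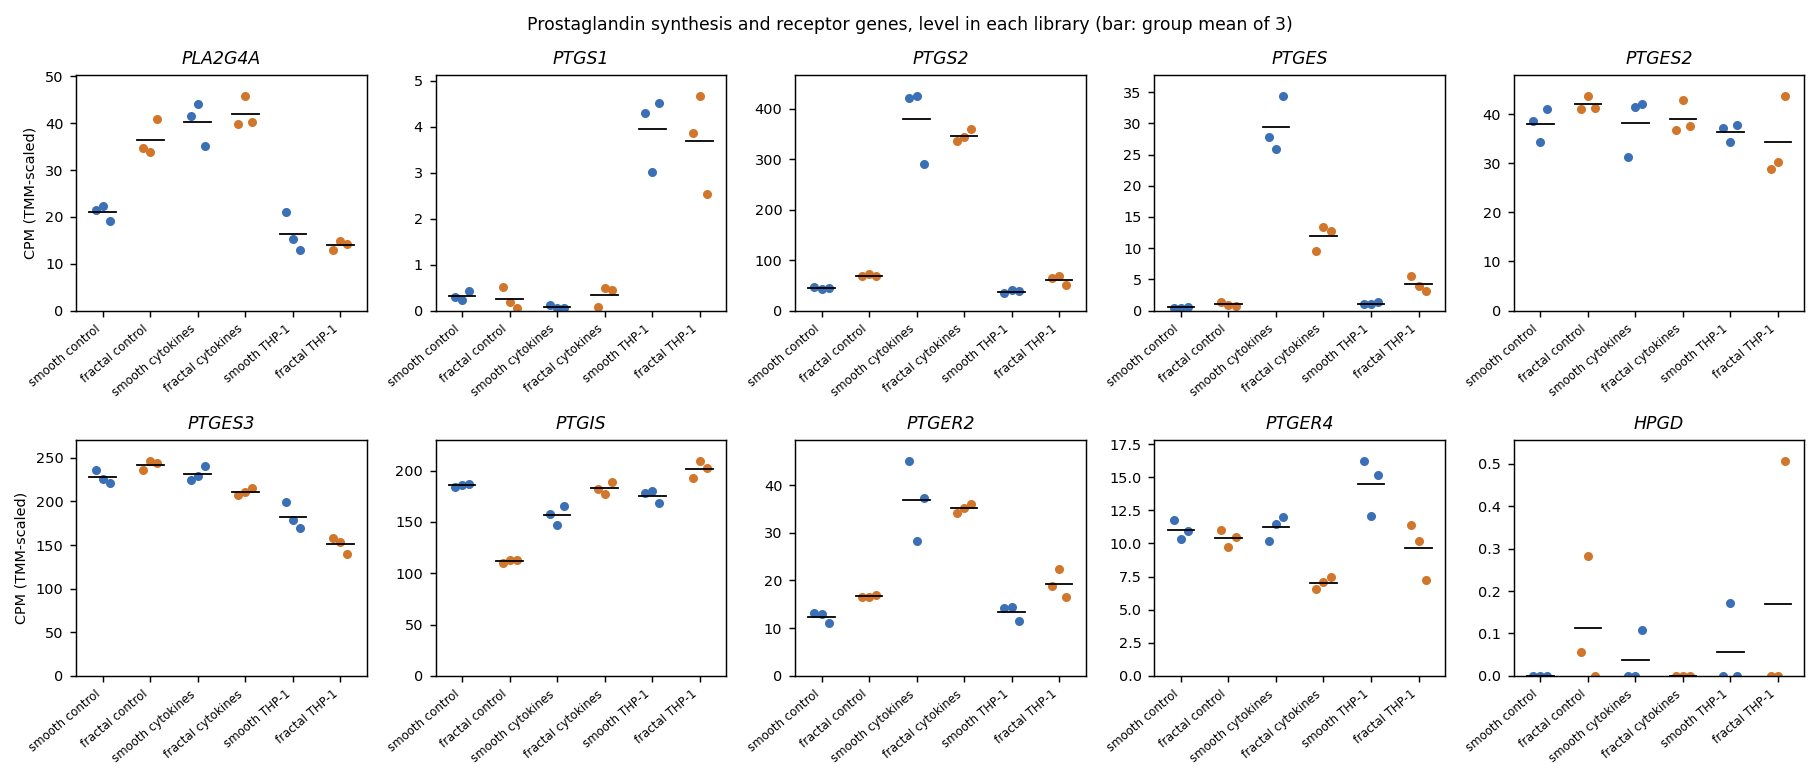
Level of each of the 10 genes in every library, in CPM after TMM scaling on linear axes that start at 0, with smooth libraries in blue, fractal in orange and a bar at each group mean of 3. PTGS2, PTGES and PTGER2 are high in the cytokine libraries, PTGS1 in the THP-1 libraries (2.53 to 4.67 CPM), and PTGIS is lowest in the fractal controls (110 to 113 CPM).

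The cytokine groups ask how these cells respond to an inflammatory medium. On both topographies TNF-α and IL-6 raised 3 members together: PTGS2, PTGES and the EP2 receptor gene PTGER2. Their promoters are shown because these are the members that rose on both surfaces. Each window holds 250 bases before to 50 bases after the RefSeq start in GRCh38.p14, read 5′ to 3′ on the strand of the gene, and capitals mark matches to 6 short motifs:
PTGS2, chr1:186680374-186680673, minus strand: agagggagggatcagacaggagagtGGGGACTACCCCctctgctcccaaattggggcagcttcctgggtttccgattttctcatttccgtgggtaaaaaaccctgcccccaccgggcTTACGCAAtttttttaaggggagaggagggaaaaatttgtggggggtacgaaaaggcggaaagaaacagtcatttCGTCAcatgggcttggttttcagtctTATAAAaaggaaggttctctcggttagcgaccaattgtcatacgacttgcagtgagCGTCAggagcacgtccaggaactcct
PTGES, chr9:129752993-129753292, minus strand: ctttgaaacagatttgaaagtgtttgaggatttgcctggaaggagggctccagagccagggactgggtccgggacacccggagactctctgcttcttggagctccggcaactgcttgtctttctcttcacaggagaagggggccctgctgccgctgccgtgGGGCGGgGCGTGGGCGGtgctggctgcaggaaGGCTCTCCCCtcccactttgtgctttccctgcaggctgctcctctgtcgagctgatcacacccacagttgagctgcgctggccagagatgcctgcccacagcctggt
PTGER2, chr14:52314062-52314361, plus strand: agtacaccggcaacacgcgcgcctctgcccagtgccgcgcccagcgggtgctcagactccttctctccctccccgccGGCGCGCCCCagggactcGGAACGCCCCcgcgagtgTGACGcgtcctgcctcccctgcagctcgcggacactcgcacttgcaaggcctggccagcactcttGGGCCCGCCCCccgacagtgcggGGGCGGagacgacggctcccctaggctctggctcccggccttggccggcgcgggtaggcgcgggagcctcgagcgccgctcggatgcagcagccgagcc
The motifs were an NF-kB-like motif (GGG and CC with any 5 bases between them), a C/EBP-like TTNCGCAA, the cyclic AMP response core CGTCA, the TATA box TATAAA, the EGR1 site GCGTGGGCG and the GC box GGGCGG, each searched on both strands.

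The PTGS2 window holds overlapping NF-kB-like matches from 225 bases before the start, a C/EBP-like match at 133, a CGTCA at 58 and a TATA box at 32, and a further CGTCA 25 bases past the start. In PTGES there is no TATA box match, but an EGR1 site lies 82 bases before the start and overlaps a GC box at 78. A further GC box lies at 89, and an NF-kB-like match on the other strand at 57. PTGER2 holds NF-kB-like matches, GC boxes and 1 CGTCA on the other strand. Of 35116 RefSeq promoter windows of this length 58.7% hold the NF-kB-like motif, 45.0% the GC box, 24.6% CGTCA and 11.5% the TATA box. The C/EBP-like motif (0.891%) and the EGR1 site (0.795%) are rarer. Members that did not rise with cytokines hold some of these motifs too. A window of PTGES2 has the EGR1 site 147 bases before its start, and PTGES2, PTGES3 and PTGER4 have NF-kB-like and GC box matches. A match describes letters in the window only.

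PTGS2 (ENSG00000073756, chromosome 1, 186671791 to 186680427, GRCh38) encodes cyclooxygenase 2. Its smooth controls had 46.9, 43.6 and 44.3 CPM and its smooth cytokine libraries 422, 425 and 290 CPM. On fractal topography the values were 67.8, 72.0 and 67.6 CPM without and 336, 343 and 360 CPM with cytokines. All treated libraries lay above all controls, and the lowest of the smooth treated libraries was replicate 3, not the library with many mitochondrial counts. The log2 fold change was 3.08 ± 0.12 on smooth (adjusted p = 2.33e-15) and 2.32 ± 0.12 on fractal (4.43e-13).

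PTGES (ENSG00000148344, chromosome 9, 129738331 to 129753047) had the largest cytokine response of the members. It went from 0.470, 0.461 and 0.580 CPM to 27.9, 25.9 and 34.4 CPM on smooth, a change of 5.86 ± 0.28 (adjusted p = 3.17e-14). On fractal it went from 1.38, 0.845 and 0.699 CPM to 9.58, 13.4 and 12.8 CPM, a change of 3.61 ± 0.25 (7.90e-11). Controls and treated libraries did not overlap on either surface, and the treated fractal libraries all lay below the treated smooth ones. PTGES2 stood at 38.0 ± 3.4 and 38.2 ± 6.1 CPM on smooth (0.011 ± 0.13, adjusted p = 0.967) and at 42.0 ± 1.5 and 39.0 ± 3.4 CPM on fractal (-0.10 ± 0.13, 0.618). PTGES3 had 228 ± 7.6 and 232 ± 8.0 CPM on smooth (0.025 ± 0.07, 0.856). Its small fall on fractal, from 242 ± 5.0 to 211 ± 3.9 CPM (-0.20 ± 0.07, 0.0455), was lost without any 1 of fractal control replicates 1, 2 or 3 or fractal cytokines replicate 1 (adjusted p from 0.0558 to 0.130), with the replicate number as a block (0.0535), with upper-quartile factors (0.0881) and with no filter (0.0579).

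Among the receptors, PTGER2 rose and PTGER4 did not. PTGER2 (chromosome 14, 52314305 to 52328606) had 13.1, 12.9 and 11 CPM in the smooth controls and 45.0, 28.3 and 37.2 CPM with cytokines (1.57 ± 0.15, adjusted p = 8.60e-09). On fractal it had 16.5, 16.6 and 17 CPM without and 34.2, 35.3 and 36.1 CPM with cytokines (1.08 ± 0.14, 2.58e-06). The lowest treated value, 28.3 CPM, came from smooth cytokines replicate 2, 1 of the libraries that stood apart. PTGER4 on smooth had 11 ± 0.73 and 11.2 ± 0.89 CPM (0.031 ± 0.16, adjusted p = 0.92), and fell on fractal from 11, 9.72 and 10.5 CPM to 6.58, 7.07 and 7.44 CPM (-0.57 ± 0.17, 0.0129). Without fractal control replicate 1 the fall in PTGER4 missed the threshold (0.0513).

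PLA2G4A (chromosome 1, 186828953 to 186988981), which supplies the substrate, went from 21.5, 22.3 and 19.1 CPM to 41.6, 44.1 and 35.2 CPM with cytokines on smooth (0.94 ± 0.14, adjusted p = 1.04e-05). On fractal its controls were already at 34.7, 33.9 and 40.9 CPM, overlapping the 39.8, 45.8 and 40.3 CPM of the treated libraries (0.20 ± 0.13, 0.299). PTGIS (chromosome 20, 49503874 to 49568146) moved in opposite directions. On smooth it fell from 184, 186 and 187 CPM to 158, 147 and 165 CPM (-0.24 ± 0.07, 0.00956), and on fractal it rose from 110, 113 and 113 CPM to 182, 177 and 189 CPM (0.71 ± 0.07, 2.36e-08). PTGS1 stayed under 0.52 CPM in all control and cytokine libraries and passed in neither comparison.

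With cytokines, then, 5 of the 9 tested members passed on smooth, where 25.7% of all tested genes did, and 6 passed on fractal, where 25.8% did. With both libraries that stood apart left out, the counts were again 5 and 6, with no share of all tested genes from that fit to set beside them. The smooth changes then were 2.98 for PTGS2, 5.94 for PTGES, 1.73 for PTGER2, 0.87 for PLA2G4A and -0.20 for PTGIS.

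Whether the surface changed the cytokine response was tested as an interaction, the fractal minus the smooth log2 effect. It passed for 4 of the 9 tested members, against 2.70% of all tested genes. These 436 genes became 1461 without the libraries that stood apart, 983 in a fit to the 4 groups alone, and between 271 and 532 without single libraries. For PTGES the difference was -2.25 ± 0.42 (adjusted p = 0.002), for PTGS2 -0.75 ± 0.16 (0.00831), for PLA2G4A -0.74 ± 0.19 (0.0351) and for PTGIS 0.95 ± 0.10 (7.89e-07). The responses of the inducible synthase, of cyclooxygenase 2 and of the phospholipase were thus smaller on fractal, and that of prostacyclin synthase had the other sign. Set beside the levels, PTGS2 and PLA2G4A started higher in the fractal controls and had overlapping levels under cytokines, and PTGES ended lower. PTGIS started lower on fractal and ended at 177 to 189 CPM against 147 to 165 CPM on smooth, a difference that did not pass (0.22 ± 0.07, adjusted p = 0.0733) but did with DESeq2 (0.0125).
The call for PLA2G4A was lost when any of 10 of the 12 libraries was left out (adjusted p from 0.0518 to 0.127), all except smooth cytokines replicate 3 and fractal cytokines replicate 2, but it held without the pair of libraries that stood apart (-0.66, 0.0111). Without that pair PTGES was at -2.33 (6.06e-05), PTGS2 at -0.66 (0.00329) and PTGIS at 0.90 (2.81e-11), and PTGER2, which otherwise did not pass (-0.50 ± 0.20, 0.25), did (-0.65, 0.00443). PTGER4 (-0.60, interval -1.07 to -0.12, adjusted p = 0.218) and PTGES3 (-0.22, interval -0.44 to -0.01, 0.334) did not pass.

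The direct comparison of the surfaces asks how topography acts within a condition. In untreated cells PTGIS was lower on fractal, with 110 to 113 CPM against 184 to 187 CPM (-0.73 ± 0.07, adjusted p = 3.70e-07). PTGS2 was higher on fractal (0.62 ± 0.12, 0.00415) and so was PLA2G4A (0.80 ± 0.14, 0.00171), and in none of these genes did the groups overlap (30.3% of all tested genes had no overlap here). So 3 of the 9 tested members passed, against 1.77% of all tested genes. That background was unstable: its 286 genes became 1188 without the libraries that stood apart, 2755 in a fit to the controls alone and 131 to 150 without any 1 of the 6 control libraries. PTGES (0.95 ± 0.37, adjusted p = 0.263) and PTGER2 (0.43 ± 0.15, 0.177) had higher fractal values without overlap but did not pass. PTGER2 passed in a fit to these 6 libraries alone (0.00257) and without the libraries that stood apart (0.0122). Both of those are treated libraries.

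Under cytokines 2 of the 9 passed, against 4.46% of all tested genes (719, and 1561 without the libraries that stood apart), and both were lower on fractal. PTGES was at 9.58 to 13.4 CPM against 25.9 to 34.4 CPM (-1.30 ± 0.19, adjusted p = 5.60e-05), and PTGER4 at 6.58 to 7.44 CPM against 10.2 to 12.0 CPM (-0.68 ± 0.17, 0.0139). PTGER4 missed the threshold without smooth cytokines replicate 3 (0.0635) or fractal cytokines replicate 1 (0.075). PTGS2 had 379 ± 77 CPM on smooth and 346 ± 12 CPM on fractal, a difference of -0.13 with a 95% interval of -0.36 to 0.10. For PTGER2 (-0.065, interval -0.35 to 0.22) and PLA2G4A (0.061, interval -0.22 to 0.34) the surfaces also could not be separated. Leaving out the libraries that stood apart, the same pair of genes passed, PTGES at -1.39 and PTGER4 at -0.66.

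**Figure D2:**
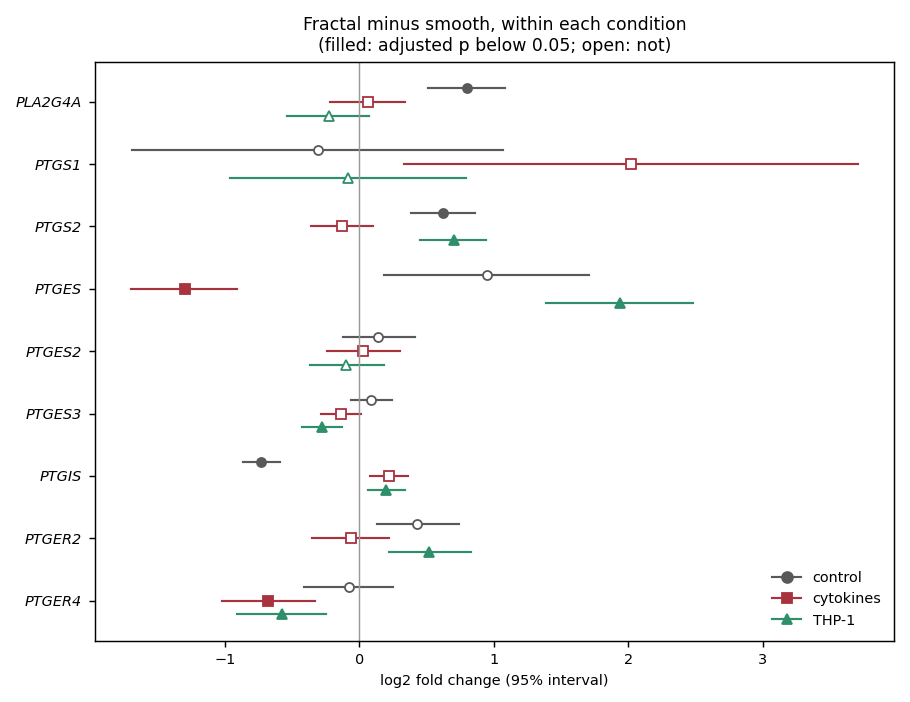
Fractal minus smooth log2 difference of each tested gene in control (grey circles), cytokine (red squares) and THP-1 (green triangles) libraries, with unadjusted 95% intervals and filled symbols for an adjusted p under 0.05. PTGES lies at -1.30 under cytokines and at 1.94 with THP-1, and PTGIS at -0.73 in the controls.

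The THP-1 groups ask the same of an inflammation driven by macrophages. Here the cyclooxygenase that rose was PTGS1 (chromosome 9, 122370530 to 122395703), not PTGS2. PTGS1 had 0.294, 0.230 and 0.435 CPM in the smooth controls and 4.31, 3.02 and 4.51 CPM with THP-1 (3.62 ± 0.54, adjusted p = 7.79e-06). On fractal it had 0.516, 0.188 and 0.0582 CPM without and 3.87, 4.67 and 2.53 CPM with THP-1 (3.84 ± 0.54, 1.90e-06). PTGS1 was kept only through the THP-1 libraries, so these calls are no separate evidence. Every THP-1 library lay above every other library, and no difference between the surfaces passed (-0.088 ± 0.42, adjusted p = 0.917, 95% interval -0.96 to 0.79). The macrophage marker sum was high in the same libraries, at 65.6 ± 2.6 CPM on smooth and 30.8 ± 2.7 CPM on fractal. Of the 25 markers 12 could be tested, 10 of them kept only through the THP-1 libraries, so their calls with THP-1 are no separate evidence. Between the surfaces with THP-1, 5 of the 12 were lower on fractal, where 20.0% of all tested genes passed in either direction. All 5 were among those kept only through the THP-1 libraries. The 2 others, CD14 (0.26 ± 0.29) and CSF1R (-0.42 ± 0.38), did not pass. PTGS1 is known to be expressed in monocytes and macrophages, and the part of the added cells in its rise was not tested.

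**Figure D3:**
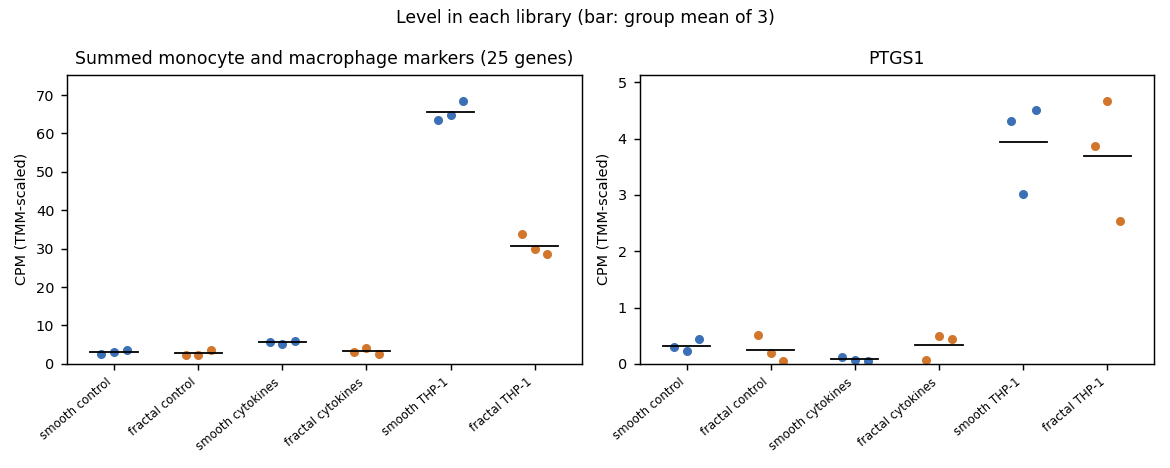
Summed level of 25 monocyte and macrophage markers (left) and level of PTGS1 (right) in every library, in CPM after TMM scaling, with smooth libraries in blue, fractal in orange and a bar at each group mean of 3. Both are high only in the THP-1 libraries. There the marker sum is 63.5 to 68.5 CPM on smooth and 28.7 to 33.8 CPM on fractal, and PTGS1 is 3.02 to 4.51 and 2.53 to 4.67 CPM. The part of the added cells in PTGS1 was not tested.

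PTGS2 did not pass with THP-1. It had 34.9, 40.2 and 38.0 CPM on smooth, below its controls (-0.25 ± 0.12, adjusted p = 0.104), and 64.3, 67.7 and 51.2 CPM on fractal (-0.18 ± 0.12, 0.215). On smooth the lower level of PTGS2 passed without the libraries that stood apart (-0.26, 0.0495), in a fit to these 6 libraries alone (0.00731) and with no filter (0.0491). PTGES rose on both surfaces, but to far lower levels than with cytokines: to 0.989, 1.03 and 1.32 CPM on smooth (1.14 ± 0.37, 0.0175) and to 5.52, 3.96 and 3.20 CPM on fractal (2.13 ± 0.27, 3.01e-07). The smooth rise of PTGES missed the threshold without smooth control replicate 1 (0.0589) or 2 (0.0629), without smooth THP-1 replicate 3 (0.0738) and in a fit to these 6 libraries alone (0.051).

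PLA2G4A and PTGES3 fell with THP-1. PLA2G4A went to 12.9, 14.9 and 14.2 CPM on fractal (-1.38 ± 0.14, adjusted p = 1.32e-08), and on smooth it had 21.1, 15.2 and 13.0 CPM, overlapping its controls (-0.35 ± 0.14, 0.0581). PLA2G4A passed on smooth without the libraries that stood apart (-0.36, 0.0221), without smooth THP-1 replicate 1 (-0.58, 0.00251), in a fit to these 6 libraries alone (0.0261) and with no filter (0.044). PTGES3 fell to 183 ± 15 CPM on smooth (-0.32 ± 0.07, 0.00134) and to 151 ± 9.4 CPM on fractal (-0.68 ± 0.07, 2.51e-08). PTGIS rose on fractal to 193, 209 and 202 CPM (0.84 ± 0.07, 2.07e-10) and had 178, 180 and 168 CPM on smooth (-0.082 ± 0.07, 0.386). The receptors did not pass on either surface: PTGER2 had 0.12 ± 0.15 and 0.21 ± 0.15, and PTGER4 had 0.40 ± 0.16 (adjusted p = 0.0525) and -0.10 ± 0.16. PTGER4 passed on smooth with DESeq2 (0.0342), with RLE (0.0488) or upper-quartile (0.0391) factors, with the filter at 1 CPM (0.0437), without smooth THP-1 replicate 2 (0.0275), in a fit to these 6 libraries alone (0.00955) and without the libraries that stood apart (0.0189).

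With THP-1, 3 of the 9 tested members passed on smooth, against 35.1% of all tested genes, and 5 passed on fractal, against 50.5%, shares near the background. Both counts include PTGS1, which was kept only through the THP-1 libraries, so its calls are no separate evidence. Leaving out the libraries that stood apart, these counts were 6 and 7, with no share of all tested genes from that fit to set beside them. PTGES2 was among the genes that then passed on fractal (-0.51, adjusted p = 5.02e-05, against -0.30 ± 0.13 and 0.0592 with all libraries), and it passed there without fractal THP-1 replicate 3 alone (0.000112). It stood at 28.9 and 30.3 CPM in replicates 1 and 2 and at 43.6 CPM in replicate 3. It also passed on fractal with the replicate number as a block (0.0424) and with no filter (0.027). PTGER2 passed on fractal too (0.30, 0.033). The fractal changes of the others without these libraries were 4.04 for PTGS1, 2.28 for PTGES, -1.40 for PLA2G4A, -0.64 for PTGES3 and 0.84 for PTGIS.

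The THP-1 effect differed between the surfaces for 3 of the 9, against 13.2% of all tested genes. The fractal minus the smooth effect was 0.93 ± 0.10 for PTGIS (adjusted p = 2.28e-07), -1.03 ± 0.20 for PLA2G4A (0.000889) and -0.37 ± 0.10 for PTGES3 (0.0177). PTGIS and PLA2G4A thus had interactions of the same sign with both treatments, but both interactions share the control libraries, where these genes differed between the surfaces. PTGES3 missed the threshold without smooth control replicate 3 (0.053) or smooth THP-1 replicate 1 (0.0653). PTGES (0.99 ± 0.48, 0.19) and PTGS2 (0.077 ± 0.17, 0.828) did not pass. Without the libraries that stood apart PTGES2 passed as well (-0.45, 0.0158, and 0.0241 without fractal THP-1 replicate 3 alone), and PTGIS was at 0.92, PLA2G4A at -1.04 and PTGES3 at -0.32.

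Within the THP-1 libraries 6 of the 9 differed between the surfaces, against 20.0% of all tested genes. Marker levels were also unequal here, as the macrophage sum averaged 65.6 CPM in smooth libraries but 30.8 CPM in fractal ones. For the podocyte sum the means were 1360 and 975 CPM in that order. The part of either sum in these differences, and in the THP-1 interactions above, was not tested. PTGES was higher on fractal without overlap (1.94 ± 0.26, adjusted p = 6.17e-06), the opposite of its order under cytokines. PTGS2 (0.70 ± 0.12, 0.000122), PTGER2 (0.52 ± 0.15, 0.0131) and PTGIS (0.20 ± 0.07, 0.0436) were higher on fractal, and PTGER4 (-0.58 ± 0.16, 0.011) and PTGES3 (-0.28 ± 0.07, 0.00788) were lower. The calls for PTGES and PTGS2 held whichever library was left out. In a fit to these 6 libraries alone PTGIS (0.154), PTGER2 (0.0788), PTGER4 (0.119) and PTGES3 (0.113) missed the threshold, which leaves 2 members. Single libraries decided these 4 calls: PTGIS missed without smooth THP-1 replicate 1, 2 or 3 or fractal THP-1 replicate 2 (0.086 to 0.185), and PTGER2 without smooth THP-1 replicate 3 (0.0856) or fractal THP-1 replicate 2 (0.0857). PTGER4 (0.0643) and PTGES3 (0.0656) missed without smooth THP-1 replicate 1. PTGIS also missed with the replicate number as a block (0.055) and with no filter (0.164). Without the libraries that stood apart 7 passed, PTGES at 2.08, PTGS2 at 0.81, PTGER2 at 0.61, PTGIS at 0.19, PTGER4 at -0.43, PTGES3 at -0.23 and PTGES2 at -0.30. No share of all tested genes from that fit stands beside this count. Without fractal THP-1 replicate 3 alone PTGES2 passed too (0.042).

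Set directly against cytokines, THP-1 gave lower PTGS2, PTGES, PTGER2, PLA2G4A and PTGES3 and higher PTGS1 on both surfaces. The log2 difference of PTGS2 was -3.33 ± 0.12 on smooth (adjusted p = 1.03e-15) and -2.50 ± 0.12 on fractal (6.59e-14), and that of PTGES was -4.72 ± 0.25 (1.95e-13) and -1.48 ± 0.21 (4.44e-06). PTGER2 stood at -1.45 ± 0.15 and -0.86 ± 0.14, PLA2G4A at -1.29 ± 0.14 and -1.59 ± 0.14, and PTGES3 at -0.34 ± 0.07 and -0.48 ± 0.07. PTGS1 was higher by 5.53 ± 0.65 and 3.43 ± 0.53. In all, 6 of the 9 passed on smooth, against 22.4% of all tested genes, and 7 on fractal, against 35.9%. Both counts again include PTGS1, kept only through the THP-1 libraries. The seventh was PTGER4, higher with THP-1 on fractal (0.46 ± 0.17, 0.0339) although the groups overlapped. That call was lost without any 1 of fractal cytokines replicates 1 or 2 or fractal THP-1 replicates 1 or 2 (0.0573 to 0.193), with no filter (0.0506) and in a fit to these 6 libraries alone (0.132). Without the libraries that stood apart 6 and 8 passed, with PTGS2 at -3.24 and -2.40 and PTGES at -4.80 and -1.34, and PTGES2 added on fractal (-0.41, 0.00168, and 0.00289 without fractal THP-1 replicate 3 alone). No share of all tested genes from that fit stands beside these counts. PTGIS (0.16 ± 0.07 and 0.14 ± 0.07) did not pass, but did on both surfaces with DESeq2 (0.0234 and 0.0212) and upper-quartile factors (0.0444 and 0.0229), and on smooth without smooth cytokines replicate 3 (0.0451).

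Over the 6 groups the members therefore followed several patterns. PTGS2 and PTGER2 were highest in both cytokine groups, whose ranges overlapped, and PTGES had the order smooth cytokines, fractal cytokines, fractal THP-1, then the remaining groups, with no overlap between these steps. PTGIS was lowest in the fractal controls and highest in fractal THP-1, each apart from its neighbour in the order. Smooth cytokines came next above the fractal controls, also apart from its neighbours. In between, fractal cytokines overlapped both smooth THP-1 and smooth controls, which did not overlap each other. PTGES2 overlapped between all neighbours in its order of means. As a description over the 18 libraries, which share these groups, log2 CPM of PTGS2 correlated with that of PTGES (r = 0.90) and PTGER2 (0.95) and not with that of PTGIS (-0.05).

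The remaining genes of the prostanoid pathway were taken as 36 further genes for release of arachidonic acid, terminal synthesis, receptors, transport and breakdown, and the lipoxygenase branch. Of these 25 could be tested, but PTGDS, PTGIR and ALOX5 were kept only through the THP-1 libraries, so counts for THP-1 are given over the other 22. With cytokines 6 of the 25 rose and 2 fell on smooth (median 0.26, against 0.01 over all tested genes), where 25.7% of all tested genes passed. On fractal 4 rose and 0 fell (median 0.08, against 0.03), where 25.8% passed. Medians with genes that had no count in a group set at their bound were the same. PTGFR, which encodes the receptor for prostaglandin F2α, went from 6.75 ± 0.75 to 33.4 ± 4.4 CPM on smooth (2.31 ± 0.18, adjusted p = 3.82e-10) and from 6.57 ± 1.1 to 23.5 ± 0.81 CPM on fractal (1.83 ± 0.18, 2.23e-08). ABCC4, a transporter that can export prostaglandins, rose by 1.15 ± 0.12 and 0.97 ± 0.12. AKR1C3, an aldo-keto reductase that can form prostaglandin F2α, rose by 1.26 ± 0.20 on smooth and 2.12 ± 0.20 on fractal. Its interaction did not pass (0.86 ± 0.28, adjusted p = 0.122), and close paralogs may share reads with it. The remaining fractal rise, named after its value was seen, was in the phospholipase gene PLA2G6 (1.05 ± 0.20), which also rose on smooth (0.97 ± 0.20). The smooth falls were in PTGR3, a prostaglandin reductase (-0.34 ± 0.11), and LTA4H, the leukotriene A4 hydrolase (-0.24 ± 0.09). The call for LTA4H was lost without smooth control replicate 1, 2 or 3 or smooth cytokines replicate 3 (0.0932 to 0.168), with the replicate number as a block (0.0528) and with no filter (0.0927). That for PTGR3 was lost without smooth control replicate 1 or 3 or smooth cytokines replicate 2 or 3 (0.0556 to 0.0896).

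AKR1B1, an aldose reductase with prostaglandin F synthase activity, differed between the surfaces in its cytokine response. It went from 113 ± 3.3 to 360 ± 60 CPM on smooth (1.67 ± 0.10, adjusted p = 1.35e-12) and stood at 118 ± 7.1 and 120 ± 7.9 CPM on fractal (0.021 ± 0.09, 0.903). Its interaction of -1.65 ± 0.13 (2.80e-08) was the 1 call among the 25 for cytokines, against 2.70% of all tested genes. Between the surfaces under cytokines AKR1B1 was lower on fractal (-1.59 ± 0.10, 1.68e-11), and the prostaglandin transporter gene SLCO2A1 was higher (1.40 ± 0.40, 0.0446). These were 2 of the 25, against 4.46% of all tested genes. The call for SLCO2A1 was lost without any 1 of the 6 cytokine libraries (0.0505 to 0.202), with the replicate number as a block (0.0624) and with no filter (0.0645). Between the controls 0 of the 25 passed. With THP-1, AKR1B1 rose on both surfaces, to 375 ± 9.1 and 430 ± 37 CPM (1.73 ± 0.10 and 1.87 ± 0.10). None of the alternatives changed a call for AKR1B1.

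With THP-1, 6 of these 22 rose and 2 fell on smooth, and 7 rose and 2 fell on fractal, shares near the 35.1% and 50.5% of all tested genes. The cytosolic phospholipase gene PLA2G4C, a relative of PLA2G4A, went from 0.925 ± 0.11 to 8.35 ± 1.2 CPM on smooth (3.15 ± 0.37, adjusted p = 2.46e-07) and from 0.453 ± 0.34 to 7.45 ± 0.72 CPM on fractal (4.07 ± 0.41, 6.98e-09). PLA2G6 rose by 1.12 ± 0.20 on smooth, and AKR1C3 rose by 1.90 ± 0.20 on fractal. The smooth falls were in LTA4H (-0.45 ± 0.09) and ABCC4 (-0.38 ± 0.13), and the fractal falls in PRXL2B, a prostamide and prostaglandin F synthase (-0.37 ± 0.11), and SLCO2A1 (-1.12 ± 0.42). The fall of ABCC4 was lost without smooth control replicate 1 or 3 or smooth THP-1 replicate 2 or 3 (0.0587 to 0.0726). That of SLCO2A1 was lost without fractal control replicate 1 (0.149) or fractal THP-1 replicate 3 (0.105). It was also lost with no filter (0.0596) and in a fit to the comparison's own groups alone (0.0978).

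Between the surfaces with THP-1, 4 of the 22 were higher on fractal and 2 lower, against 20.0% of all tested genes. PTGDS was higher besides, with 34 counts on smooth and 163 on fractal. It was kept only through the THP-1 libraries, so its call is no separate evidence. PTGFR (0.89 ± 0.19), LTA4H (0.35 ± 0.09) and PTGDS, the lipocalin-type prostaglandin D synthase (2.44 ± 0.71), were higher, and so were PTGR1 (0.42 ± 0.12) and PLA2G12A (0.44 ± 0.14), named after their values were seen. PRXL2B (-0.46 ± 0.11) and SLCO2A1 (-1.24 ± 0.42) were lower. In a fit to these 6 libraries alone PTGFR (0.0611), PTGR1 (0.182), PLA2G12A (0.124) and SLCO2A1 (0.146) lost their calls. With no filter PLA2G12A (0.0655) and SLCO2A1 (0.0746) did too. PTGDS was lost without smooth THP-1 replicate 1 (0.0933) or 2 (0.0889), PTGR1 without smooth THP-1 replicate 1 (0.101) or fractal THP-1 replicate 3 (0.165, where the difference was only 0.17), and SLCO2A1 without smooth THP-1 replicate 1, 2 or 3 or fractal THP-1 replicate 3 (0.0619 to 0.114). PLA2G12A was lost without any of the THP-1 libraries except fractal replicate 1 (0.0514 to 0.101). The macrophage marker sums of 65.6 and 30.8 CPM stand beside these THP-1 values, and their part in them was not tested.
The THP-1 interaction passed for 4 of the 22, against 13.2% of all tested genes: PTGFR (0.92 ± 0.27), PTGR1 (0.54 ± 0.17) and PTGR3 (0.46 ± 0.15) upwards and PRXL2B (-0.71 ± 0.16) downwards. PTGFR, PTGR1 and PTGR3 lost their calls when single libraries were left out: PTGFR without smooth control replicate 1 or 3, fractal control replicate 1 or 3 or smooth THP-1 replicate 3 (0.0559 to 0.0752), PTGR1 without any control, any smooth THP-1 library or fractal THP-1 replicate 3 (0.0536 to 0.122, with the value at 0.29 without the last), and PTGR3 without any control, any smooth THP-1 library or fractal THP-1 replicate 1 or 2 (0.0537 to 0.135). PTGR3 was also lost with the replicate number as a block (0.0578) and with no filter (0.125). In a fit to the comparison's own groups alone PTGFR (0.0596) and PTGR1 (0.0967) lost their calls. Against cytokines, THP-1 gave 2 higher and 4 lower of the 22 on smooth, against 22.4% of all tested genes. The higher ones were PLA2G4C (2.49 ± 0.35) and ALOX5AP (1.95 ± 0.47), which helps 5-lipoxygenase use its substrate. ALOX5, 5-lipoxygenase itself, passed besides and had 2 counts in smooth cytokines against 36 in smooth THP-1. It was kept only through the THP-1 libraries, so that call is no separate evidence. ALOX5 was lost without smooth cytokines replicate 2 (0.0588) or smooth THP-1 replicate 2 (0.0648). The lower ones were PTGFR (-2.69 ± 0.18), ABCC4 (-1.52 ± 0.12), PLA2G12A (-0.61 ± 0.13) and, named after its value was seen, PNPLA8 (-0.33 ± 0.09). On fractal it gave 4 higher and 4 lower of the 22, against 35.9% of all tested genes, with AKR1B1 at 1.84 ± 0.10 and PLA2G4C at 3.06 ± 0.37 among the higher. The other higher ones, named after their values were seen, were PTGR1 (0.39 ± 0.12) and PTGR3 (0.34 ± 0.11). PTGDS (15 counts in fractal cytokines against 163 in fractal THP-1), PTGIR (0 against 32) and ALOX5 (1 against 18) were higher besides. They were kept only through the THP-1 libraries, so these calls are no separate evidence. That for ALOX5 was lost with no filter (0.075) and without fractal cytokines replicate 1 or 3 or fractal THP-1 replicate 1 or 2 (0.0543 to 0.102). PTGR1 was lost without fractal THP-1 replicate 3 (0.14, adjusted p = 0.204), and PTGR3 without fractal cytokines replicate 3 (0.0562) or fractal THP-1 replicate 2 (0.0527). Both were lost in a fit to these 6 libraries alone (0.103 for PTGR1 and 0.0621 for PTGR3). The lower were ABCC4 (-0.97 ± 0.12), PTGFR (-1.29 ± 0.18), SLCO2A1 (-1.57 ± 0.41) and, named after its value was seen, PRXL2B (-0.38 ± 0.11). PRXL2B was lost without fractal cytokines replicate 2 (0.0955), with no filter (0.0538) and in a fit to these 6 libraries alone (0.0974).

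**Figure D4:**
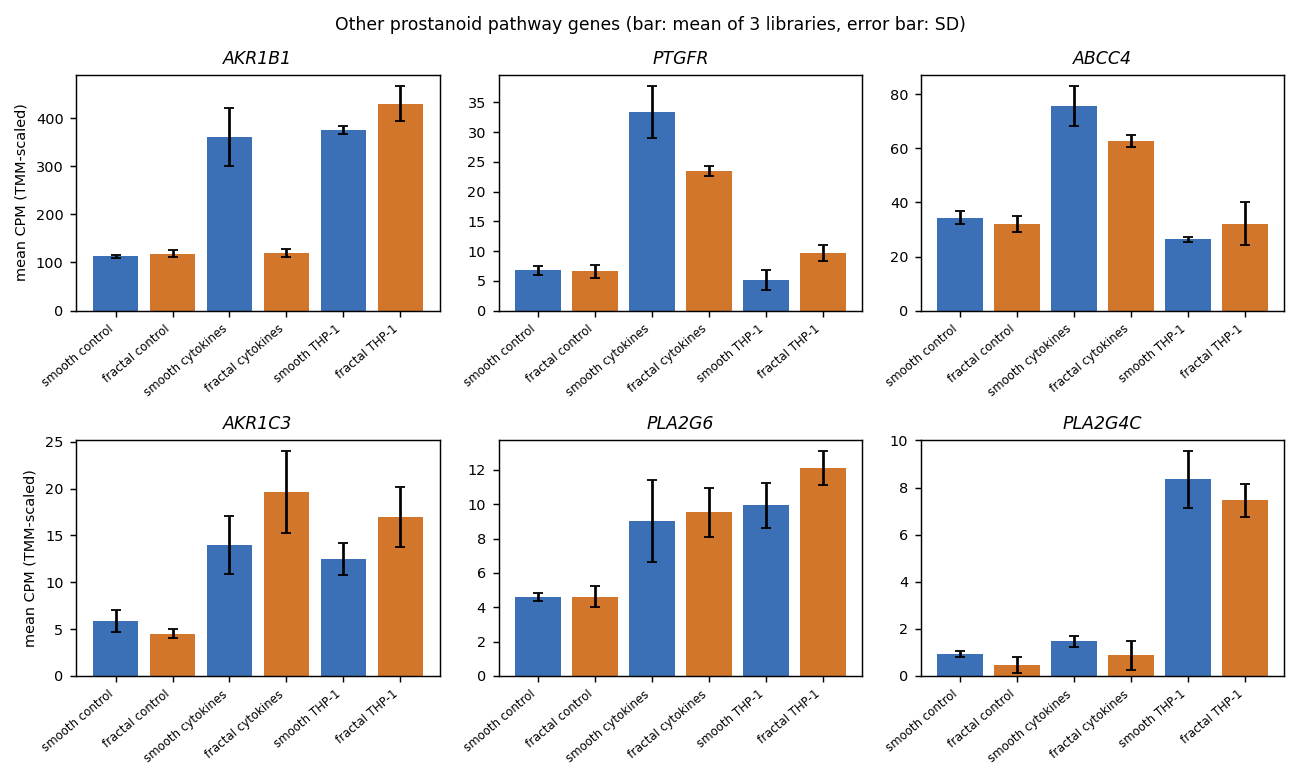
Mean CPM after TMM scaling (bars, from 0) with SD over 3 libraries for 6 further pathway genes the text describes, smooth in blue and fractal in orange. AKR1B1 is at 360 CPM in smooth and 120 CPM in fractal cytokine libraries and at 375 and 430 CPM with THP-1, and PTGFR is highest with cytokines.

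The genes most like PTGS2 in log2 CPM over the 18 libraries, among 13073 tested protein-coding genes, were ADGRG1 (r = 0.983), TPST1 (0.978), INHBA (0.969), IL1R1 (0.961) and PER1 (0.96). For PTGES they were WNT5A (0.976), ARMCX2 (0.968), DCN (0.966), B4GALT1 (0.958) and ATOH8 (0.957). IL1R1, the interleukin 1 receptor gene, went from 75.7 ± 3.3 CPM in smooth controls to 351 ± 51 CPM with cytokines and stood at 234 ± 23 CPM on fractal with cytokines. DCN, the gene of the matrix proteoglycan decorin, stood at 10.3 ± 0.32, 225 ± 50 and 126 ± 8.4 CPM in the same groups, and at 35.4 ± 4.5 CPM in fractal THP-1 libraries. These likenesses rest on the group structure of 6 groups and carry no test.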

How the data were processed

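Polyadenylated RNA was sequenced as paired reads from libraries that kept no strand, per the labels' protocols. GRCh38 (hg38), featureCounts 1.5.0-p3, HISAT2 2.0.5 and CASAVA are listed in the submitters' processing notes. The annotation release is not given in the sources used here. The deposited table holds the authors' raw counts for 58735 Ensembl genes in 18 libraries. Positions and exon lengths came from GENCODE 29, promoters from RefSeq, which held 9 of the members.

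Counts were tested with edgeR 4.0.16 in R 4.3.3: TMM scaling, filterByExpr (min.count 10, min.total.count 15), 1 mean for each of 6 groups, 12 residual degrees of freedom and robust quasi-likelihood F-tests. P-values were adjusted by Benjamini-Hochberg over 16129 genes within each of 11 comparisons. Labels share replicate numbers, but same-numbered libraries did not deviate together (r from -0.07 to 0.06 over 45 pairs), so no block was used. All 10 members are named. An item of the marker lists is not reported here. Of the other pathway genes, up to 3 in each direction by adjusted p are named in each comparison, and so are the 5 genes most correlated with PTGS2 and with PTGES. Members, lists and tests were chosen with earlier results of these data known. Alternatives were DESeq2 1.42.0, RLE or upper-quartile factors, no filter, at least 1 CPM in at least 3 libraries, the comparison's own groups, a replicate block and leaving out libraries. The fit was tested on simulated data. Figures used matplotlib 3.10.9.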

Additional observations from a re-analysis of the deposited data

Results flagged for a closer look

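The effect of a treatment differed between smooth and fractal topography, by the interaction test, for the following genes, given as the fractal minus the smooth log2 effect. With cytokines the differences were -2.25 for PTGES, -0.75 for PTGS2, -0.74 for PLA2G4A, 0.95 for PTGIS and -1.65 for AKR1B1. PTGES rose 5.86 on smooth and 3.61 on fractal, whereas PTGIS fell on smooth and rose on fractal. With THP-1 macrophages the differences were 0.93 for PTGIS, -1.03 for PLA2G4A, -0.37 for PTGES3, 0.92 for PTGFR, 0.54 for PTGR1, 0.46 for PTGR3 and -0.71 for PRXL2B. The PLA2G4A call with cytokines and the PTGES3, PTGFR, PTGR1 and PTGR3 calls with THP-1 were lost when some single libraries were left out. For PTGIS and PLA2G4A the interactions with both treatments share the control libraries, where these genes differed between the surfaces.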

How the results depend on the processing

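Over 1489 recomputed member values, 1409 kept their side of the threshold, 46 lost a call, 34 gained one and none of the called values changed sign. The count of members with a call for THP-1 on smooth, 3, became 5 with no filter, 5 in a fit to the comparison's groups alone and 6 without the pair of libraries that stood apart by mitochondrial share. No share of all tested genes from these fits stands beside these counts. Between the surfaces with THP-1 the 6 became 2 in a fit to those groups alone and ran from 3 to 7 when single libraries were left out. The calls over all genes then ran from 2341 to 3847. Under cytokines the members called ran from 1 to 2 and the calls over all genes from 495 to 740. With the replicate number as a block the number of members called was 5 instead of 6 between the surfaces with THP-1, 5 instead of 6 for cytokines on fractal and 6 instead of 5 for THP-1 on fractal, by the calls for PTGIS, PTGES3 and PTGES2. The block changed no other member's call, and no share of all tested genes from that fit stands beside these counts. Of 18 libraries 7 correlated best with their own number.

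Counts over all genes moved more. Between the controls 286 became 1188 without the libraries that stood apart, 2755 in a fit to the controls alone, 509 with DESeq2 and 131 to 150 without single libraries. Under cytokines 719 became 1561 without the libraries that stood apart. For the cytokine interaction 436 became 1461 without the libraries that stood apart, 983 with its own groups, 688 with DESeq2 and 271 to 532 without single libraries. For the THP-1 interaction 2134 became 3642 without the pair and 3266 without fractal THP-1 replicate 3 alone, and its split of 863 higher and 1271 lower became 1077 and 1014 with upper-quartile factors. A fit to its own groups gave 1412 instead of 3220 genes between the surfaces with THP-1 and 3316 instead of 5795 for THP-1 against cytokines on fractal. Of 941 recomputed values for 66 calls in other pathway genes, 122 lost the call and 0 changed sign. The block ended 4 of these calls: SLCO2A1 between the surfaces under cytokines, LTA4H with cytokines on smooth, and PTGR3 with THP-1 on fractal (0.0576) and in the THP-1 interaction. Depth limits PTGS1 outside the THP-1 libraries (4 to 16 counts a group), PTGES in the controls (24 counts on smooth and 54 on fractal) and HPGD throughout.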
